A study of Mus musculus with 9 samples.

Results

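Molecular chaperones and heat shock genes were followed through the activation of mouse splenic T cells, as 37 genes taken by symbol from the 49671 genes of the count table. All 37 were found and all 37 passed the filter on low counts, which left 18374 genes. The genes were 8 subunits of the chaperonin CCT, 6 subunits of prefoldin, 4 mitochondrial chaperones, 6 members of the HSP70 and HSP110 family, 5 partner proteins of HSP70, 6 genes of HSP90 and its cochaperones, and 2 heat shock factors.

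Total RNA was sequenced from CD3+ T cells, enriched on columns from spleens of female F1 mice of Mus musculus and castaneus parents (strain label F1 mus x cast), in 3 groups of 3 libraries. The mothers were C57BL/6 carrying a heterozygous deletion of Xist, which skews the choice of the inactive X chromosome, and the fathers were castaneus, so all 3 groups share this background. Unstimulated cells went into TRIzol directly after enrichment. Stimulated cells were cultured for 48 hours on plate-bound anti-CD3 (1 µg/ml) with soluble anti-CD28 (10 µg/ml). For the inhibitor group, IMD-0354 (2.5 µM) was added to that culture. It blocks the kinase IKK-beta, which acts upstream of NF-kB. The labels name neither cells cultured without stimulation nor a vehicle, so culture and stimulation cannot be told apart. Ages are not given. The labels call the 3 libraries of a group biological replicates without naming separate animals, and p-values cover only the spread among these libraries. In bulk samples such as these, fewer cells of a type and less RNA per cell cannot be told apart.

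Chaperones bind proteins that are not yet folded or have lost their fold. CCT is a double ring of related subunits in which actin and tubulin fold, and prefoldin hands new actin and tubulin chains to it. HSP70 proteins bind short exposed stretches in cycles of ATP that J-domain proteins start and exchange factors such as HSP110 end, and HSP90 with its cochaperones finishes signalling proteins such as kinases and steroid receptors. The mitochondrial chaperones import and fold proteins inside that organelle. The heat shock factor HSF1 binds repeats of the letters GAA in promoters, called heat shock elements, and drives the inducible chaperones under stress.

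Levels are in CPM, with library sizes scaled by TMM factors, and differences are log2 values with an approximate standard error. Genes rose, fell or were called only where the adjusted p of edgeR's quasi-likelihood test, Benjamini-Hochberg adjusted over all 18374 genes, was under 0.05. Total counts ran from 34009988 to 56221174 per library. The summed level of 8 T cell markers was 1500.3 to 2282.0 CPM in unstimulated, 1824.3 to 1979.9 in stimulated and 1770.8 to 1864.4 in inhibitor libraries, and none of them was at 0. Markers of other spleen cells were highest in unstimulated libraries, where 8 B cell markers summed to 538 to 1419.0 CPM, 10 myeloid markers to 906 to 1892.0, 6 NK cell markers to 281 to 313 and 8 erythroid and platelet markers to 39.2 to 582. The same lists summed to 68.9 to 78.7, 12 to 16.6, 16.5 to 23.5 and 4.32 to 6.93 CPM in stimulated libraries, and to 146 to 149, 26.8 to 43.6, 3.52 to 5.46 and 4.82 to 12.7 CPM in inhibitor libraries. None of these markers was at 0 in any group, and the part of these cells in the results below was not tested. Inhibitor library 1 stood apart by its number of detected genes, 30106, where the others had 20547 to 23223. Mitochondrially encoded protein genes took 2.403% to 2.88% of the counts in inhibitor libraries, 1.259% to 1.488% in stimulated and 0.9142% to 1.26% in unstimulated libraries. All comparisons were also fitted without inhibitor library 1, and calls against stimulated cells that this changed are given below. What set its number of detected genes apart was not tested, nor was the part of the mitochondrial share in the inhibitor comparison. Il2ra, the check of stimulation, had mean levels of 22.7, 1517.6 and 564 CPM in unstimulated, stimulated and inhibitor cells. Nfkbia, the check of the NF-kB pathway, had 166, 153 and 267 CPM. It was not called with stimulation (-0.12, adjusted p = 0.39) and was higher with the inhibitor than in stimulated cells (0.81, adjusted p = 3.7e-04). How far NF-kB was blocked in these cells was not tested.

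Promoter windows from RefSeq (GRCm38.p6, 250 bases before to 50 after the start) were in the table for 29 of the 37 genes. The other genes were not scanned, so a gene not named for an element below lacked either the letters or a window. The sequences shown are those of the inducible pair Hspa1a and Hspa1b, whose counts cannot be separated with certainty, and of genes on both sides of the activation response that hold heat shock element letters. Capitals mark the element, and each line reads 5′ to 3′ on the gene's strand.
Hspa1a, minus strand, chr17:34972157-34972306: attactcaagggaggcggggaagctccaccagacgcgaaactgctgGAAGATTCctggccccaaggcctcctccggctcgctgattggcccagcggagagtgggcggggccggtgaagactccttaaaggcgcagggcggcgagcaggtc
Hspa1b, minus strand, chr17:34959239-34959388: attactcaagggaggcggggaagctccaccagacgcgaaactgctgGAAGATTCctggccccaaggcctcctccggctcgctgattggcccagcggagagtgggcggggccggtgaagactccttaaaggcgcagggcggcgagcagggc
Hspe1, plus strand, chr1:55088053-55088082: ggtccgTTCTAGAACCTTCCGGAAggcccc
Hsph1, minus strand, chr5:149636277-149636306: tgcagaTTCTGGAAAGTTCtcctcagtagg
Dnaja1, plus strand, chr4:40722338-40722367: cctctaGAAAATTCtacgaggctcgggaac
Cct2, minus strand, chr10:117063394-117063423: agtgaaGAAGTTTCtagcaggacctgctgg
Cct5, minus strand, chr15:31601857-31601886: ggccgaTTCCAGAAgctactctgcggcgta

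The 150 bases before the starts of Hspa1a and Hspa1b were identical at 149 positions and held the same element of 2 units. Elements of 3 units (GAANNTTCNNGAA or TTCNNGAANNTTC, which contain the letters of 2 units) were in the windows of Hspd1, Hspe1 and Hsph1, 3 of 29 genes (10.3%), against 0.662% of all 27025 genes with a window. Some genes have several windows, and 0.603% of all 32851 windows held these letters. Hspd1 and Hspe1 start back to back in opposite directions. Their matches are the same bases, counted once for each gene here and among the elements of 2 units. The stretch printed for Hspe1 lies in an annotated Hspd1 exon. That of Hsph1 lies in an annotated Hsph1 exon, and those of Dnaja1 and Cct5 overlap annotated exons of Dnaja1 and Gm6297 and of Fam173b. Elements of 2 units (GAANNTTC or TTCNNGAA, both strands) were found for 12 of the 29 genes (41.4%), against 17% of all genes and 15.1% of all windows: Bag3, Cct2, Cct5, Cct6a, Cdc37, Dnaja1, Fkbp4, Hspa1a, Hspa1b, Hspd1, Hspe1 and Hsph1. The E-box CACGTG, the letters bound by MYC and related factors, was in the windows of Hsf2, Hspd1 and Hsph1 (10.3% of the 29 genes), against 8.09% of all genes and 7.15% of all windows. These matches describe letters in a window and not binding. As the values below show, genes with heat shock element letters were among those that rose with stimulation (Hspd1, Hspe1, Cct2) and among those that fell (Dnaja1, Hspa1a, Hspa1b). The calls of Hspa1a and Hspa1b were lost without unstimulated library 1.

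Most of the chaperone genes rose with stimulation, and many of them were lower in the inhibitor group. Against unstimulated cells, 29 of the 37 genes rose with stimulation, 5 fell (Pfdn5, Hspa1a, Hspa1b, Dnaja1 and Dnajb1) and 3 were not called (Hsph1, Bag3 and Hsf1). Among all genes tested 66% were called, with 32% higher and 34% lower. Libraries of both groups did not overlap for 29 of the 37 in the higher and 4 in the lower direction, against 35.4% and 37.5% of all genes. The median log2 difference was 1.24 over the 37 genes and -0.05 over all genes. With upper-quartile factors the split of all genes was 4865 higher and 7378 lower in place of 5880 and 6246, with their median at -0.27.

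Against stimulated cells, 19 of the 37 were lower in the inhibitor group, 3 were higher (Pfdn5, Hsf1 and Hsf2) and 15 were not called, with a median of -0.37. The background was 44.5% called, 22.8% lower and 21.7% higher, with a median of 0.03 over all genes tested. The inhibitor libraries lay fully below the stimulated ones for 22 of the 37 and fully above for 6, against 29.4% and 28% of all genes. Upper-quartile factors moved that median to 0.16 and the split to 4828 higher and 3405 lower in place of 3990 and 4192. Same-numbered libraries of these 2 groups deviated weakly together, but the labels do not state that they are paired. With the replicate number as a block and only these 6 libraries, 21 of the 37 were lower and 6 higher, against 28% and 25.4% of the genes tested there.

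The inhibitor group still lay above unstimulated cells for 26 of the 37 genes, with Dnaja1 and Dnajb1 lower and 9 not called. The background of this comparison was 52.4% called, 26.3% higher and 26.1% lower. Libraries did not overlap for 25 of the 37 in the higher and 2 in the lower direction, against 29.4% and 30.5% of all genes. Its median was 0.83 over the 37 genes and -0.00 over all genes. All 3 comparisons share libraries, so their values are given side by side. Libraries of the 3 groups lay fully apart in the order unstimulated, inhibitor, stimulated for 18 of the 37 genes, where 11.1% of all genes had this order. Calls both higher with stimulation and lower in the inhibitor group were made for 19 of 37, against 17.1% of all genes.

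**Figure D1:**
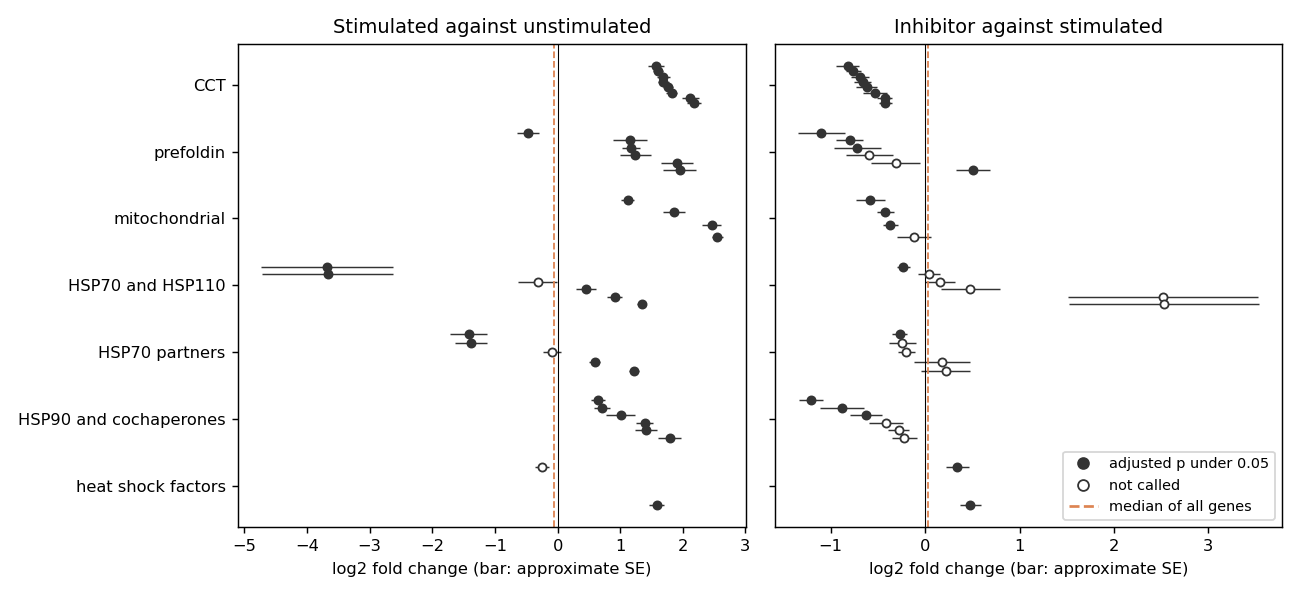
Log2 differences of the 37 genes by class in the comparisons stimulated against unstimulated and inhibitor against stimulated, with points for genes (filled where called), bars for approximate standard errors and a dashed line at the median of all genes. All 8 CCT genes lie above 0 in the first and below 0 in the second comparison, while Hspa1a and Hspa1b lie at -3.67 and -3.68 in the first and at 2.53 and 2.52 in the second.

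The CCT subunits moved together. All 8 rose with stimulation, all 8 were lower in the inhibitor group than in stimulated cells, and all 8 stayed above the unstimulated level there. The median log2 differences were 1.73, -0.64 and 1.18 in these 3 comparisons, and all 8 genes had the 3 groups fully apart. Tcp1, which encodes the alpha subunit, had 148, 144 and 126 CPM in unstimulated libraries 1 to 3, 658, 622 and 618 in stimulated libraries and 346, 384 and 444 in inhibitor libraries. Each inhibitor library thus lay between the highest unstimulated and the lowest stimulated library. Tcp1 rose by 2.18 ± 0.11 on the log2 scale, or 4.54-fold (adjusted p = 1.2e-07), and the inhibitor group was lower by a log2 difference of -0.69 ± 0.10 (adjusted p = 4.6e-04).

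Cct7, the eta subunit, had the lowest inhibitor value of the 8 relative to stimulated cells. Its levels were 136, 128 and 120 CPM unstimulated, 490, 565 and 613 stimulated, and 261, 322 and 358 with the inhibitor. The log2 differences were 2.12 ± 0.13 with stimulation (adjusted p = 4.5e-07) and -0.82 ± 0.12 against stimulated cells (adjusted p = 5.1e-04). Cct2, the beta subunit, rose from 184, 175 and 174 CPM to 583, 595 and 628, with 433, 439 and 482 CPM in the inhibitor libraries. Its difference from stimulated cells was -0.42 ± 0.07 (adjusted p = 0.00127), the smallest of the 8. For Cct8, the theta subunit, the levels were 144, 143 and 133, then 402, 435 and 433, then 229, 250 and 272 CPM. Its values were 1.60 ± 0.08 with stimulation (adjusted p = 1.8e-07), -0.76 ± 0.08 against stimulated cells (adjusted p = 6.4e-05) and 0.84 ± 0.08 against unstimulated cells (adjusted p = 1.7e-05). The other CCT genes (Cct3, Cct4, Cct5 and Cct6a) rose by 1.57 to 1.82 and differed from stimulated cells by -0.66 to -0.43, all called.

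Cct3, the gamma subunit, had 106, 94.9 and 91 CPM unstimulated, 258, 298 and 309 stimulated and 162, 210 and 229 with the inhibitor. The delta subunit gene Cct4 had 156, 142 and 146, then 485, 466 and 487, then 270, 309 and 332 CPM. In both genes the inhibitor libraries filled a range of their own between the groups. The epsilon subunit gene Cct5 went from 179, 157 and 154 to 479, 536 and 561 CPM, with 303, 337 and 382 in the inhibitor libraries. The zeta subunit gene Cct6a went from 114, 100 and 95.6 to 380, 368 and 346 CPM, with 262, 267 and 286 in the inhibitor libraries. In each of the 8 genes inhibitor library 1 was the lowest of its group.

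Per kilobase of annotated exon, Cct2 was the highest and Cct3 the lowest CCT subunit in all 3 groups. Cct2 stood at 69.5 ± 2.23, 235 ± 9 and 177 ± 10.4 CPM per kilobase (SD, n = 3) in the unstimulated, stimulated and inhibitor groups, and Cct3 at 15.3, 45.3 and 31.5. The coefficient of variation among the 8 subunits was 51.3% ± 1.37, 46.9% ± 0.883 and 53.5% ± 3.36 (SD over 3 libraries), so the spread between subunits was of similar size while each rose at least 2.97-fold with stimulation. Levels per length depend on the exon length used, and with the longest transcript the 3 coefficients were 43%, 38.6% and 44.3%.

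**Figure D2:**
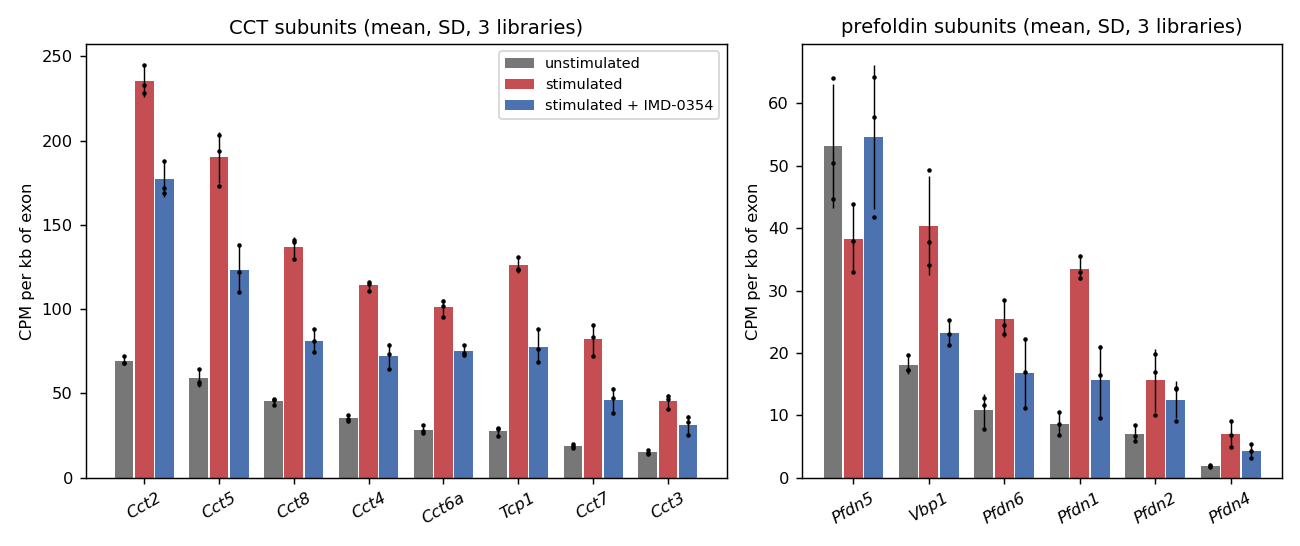
CPM per kilobase of exon for each CCT and prefoldin subunit, by group, with bars for the mean from 0, error bars for the SD and points for the 3 libraries. Cct2 is highest and Cct3 lowest among CCT subunits in each group, and Pfdn5 is the highest prefoldin subunit in the unstimulated and inhibitor groups.

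Prefoldin was less uniform. Of its 6 subunits, 5 rose with stimulation (median of the 6: 1.20) and Pfdn5 fell, and only Vbp1 had the 3 groups fully apart. Outside Pfdn5 the unstimulated levels were 4.24 to 41.7 CPM. Vbp1, the subunit also named prefoldin 3 and encoded on the X chromosome, had 36.7, 36.8 and 41.7 CPM unstimulated, 105, 72.8 and 80.3 stimulated and 45.4, 49 and 53.9 with the inhibitor. It rose by 1.17 ± 0.14 (adjusted p = 4.0e-05) and was lower in the inhibitor group by a log2 difference of -0.80 ± 0.14 (adjusted p = 0.00108). Its difference from unstimulated cells, 0.36 (adjusted p = 0.047), was lost under most other settings and without any of unstimulated libraries 1 and 2, stimulated library 3 or inhibitor libraries 2 and 3 (0.30 to 0.37, with adjusted p up to 0.153).

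Pfdn1 had 11.8, 9.51 and 7.62 CPM unstimulated, 35.5, 39.4 and 36.6 stimulated and 10.7, 18.2 and 23.2 with the inhibitor, where library 1 overlapped the unstimulated range. It rose by 1.95 ± 0.26 (adjusted p = 8.5e-05) and had the largest inhibitor difference of the complex, -1.10 ± 0.25 (adjusted p = 0.00549). Pfdn5 went the other way, with 89.3, 62.2 and 70.4 CPM unstimulated, 61.2, 52.9 and 45.9 stimulated and 58.3, 80.6 and 89.5 with the inhibitor. Its log2 differences were -0.47 ± 0.18 with stimulation (adjusted p = 0.0422) and 0.51 ± 0.18 in the inhibitor group (adjusted p = 0.0427). The first call was lost without any of unstimulated libraries 1 and 3, stimulated libraries 2 and 3 or inhibitor library 2 (-0.50 to -0.31), with an adjusted p of 0.178 without unstimulated library 1. The second was lost without any of unstimulated library 3, stimulated libraries 2 and 3 or inhibitor libraries 2 and 3 (0.38 to 0.51). It was also lost with the replicate block over the 6 libraries (0.52, adjusted p = 0.0541). Pfdn5 shares 27.05% of its windows of 50 bases with other annotated genes, among them Gm5644 and Myg1. 

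Pfdn4 had 5.17, 4.59 and 4.24 CPM unstimulated, 23, 17.1 and 12.6 stimulated and 7.81, 10.7 and 13.5 with the inhibitor, whose library 3 overlapped the stimulated range. It rose by 1.91 (adjusted p = 9.2e-05), and its inhibitor difference of -0.72 (adjusted p = 0.038) was -0.69 (adjusted p = 0.0934) with the block. That call was also lost with upper-quartile factors (-0.59) and without any of stimulated libraries 1 and 2 or inhibitor libraries 1 and 2 (-0.75 to -0.48). Pfdn2 had 16.5, 11.6 and 13, then 38.6, 32.8 and 19.3, then 17.6, 27.7 and 27.6 CPM. Only its inhibitor library 1 lay below every stimulated library. Pfdn6 had 15.2, 14 and 9.3, then 34, 29.2 and 27.5, then 13.3, 20.2 and 26.6 CPM. All its inhibitor libraries lay below every stimulated library. Pfdn2 and Pfdn6 rose by 1.15 and 1.24 and were not called between inhibitor and stimulated cells (-0.31 and -0.59, adjusted p = 0.359 and 0.0792). Pfdn6 was called lower with no filter on low counts, by DESeq2, by limma voom and with only the 6 libraries (-0.62 to -0.58), and without inhibitor library 3 (-0.85, adjusted p = 0.0235). With the replicate block over the 6 libraries it was not called (-0.62, adjusted p = 0.0643).

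Per kilobase, Pfdn5 stood at 53.1 ± 9.94, 38.3 ± 5.5 and 54.6 ± 11.6 CPM in the unstimulated, stimulated and inhibitor groups (SD, n = 3), and Vbp1 at 18, 40.4 ± 7.96 and 23.2. Unstimulated cells thus had a gap between these subunits, while in stimulated cells Vbp1 reached the level of Pfdn5. The coefficient of variation among the 6 subunits was 112% ± 8.19, 51.1% ± 5.22 and 83.6% ± 3.54 in the 3 groups.

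Mitochondrial chaperones had the highest median increase of the 7 classes. All 4 rose with stimulation, with a median log2 difference of 2.16. Hspa9, the mitochondrial HSP70 that pulls proteins through the inner membrane, had 159, 150 and 142 CPM unstimulated, 868, 928 and 853 stimulated and 628, 692 and 733 with the inhibitor. It rose by 2.55 ± 0.09 (adjusted p = 1.8e-08), more than any other of the 37, and the inhibitor group was lower by -0.37 ± 0.08 (adjusted p = 0.00562). Hspd1, the HSP60 chaperonin of the matrix, had 150, 138 and 101 CPM, then 678, 734 and 725, then 433, 445 and 554. It rose by 2.46 ± 0.15 (adjusted p = 5.4e-07), with an inhibitor difference of -0.58 ± 0.15 (adjusted p = 0.00959).

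Hspe1, the HSP10 lid of that chaperonin, rose with stimulation and was not called in the inhibitor comparison. Its levels were 46.5, 35.5 and 29.4 CPM unstimulated, 140, 142 and 122 stimulated and 97.4, 137 and 138 with the inhibitor. It rose by 1.86 ± 0.18 (adjusted p = 1.0e-05). The inhibitor difference was -0.12 ± 0.18 (adjusted p = 0.62), with inhibitor libraries 2 and 3 inside the stimulated range and library 1 below it. Trap1, the mitochondrial HSP90, had 68.3, 70 and 63.9 CPM unstimulated, 131, 156 and 154 stimulated and 99, 111 and 118 with the inhibitor. It rose by 1.12 ± 0.10 (adjusted p = 4.0e-06) and had an inhibitor difference of -0.42 ± 0.09 (adjusted p = 0.00479).

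Hspd1 (chr1:55077835-55088243, minus strand) and Hspe1 (chr1:55088132-55091307, plus strand) share a promoter region, and 112 bases of their exons overlap on opposite strands. The log2 ratio of Hspd1 to Hspe1 per kilobase was 0.97 ± 0.14 unstimulated, 1.57 ± 0.15 stimulated and 1.11 ± 0.23 with the inhibitor (SD, n = 3). Stimulated libraries lay above both other groups without overlap, by 0.60 and by 0.45, each at p = 0.10 in a two-sided exact permutation test. That is the smallest p that 3 against 3 libraries allow, and its Benjamini-Hochberg value over 12 such ratio tests was 0.13.

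**Figure D3:**
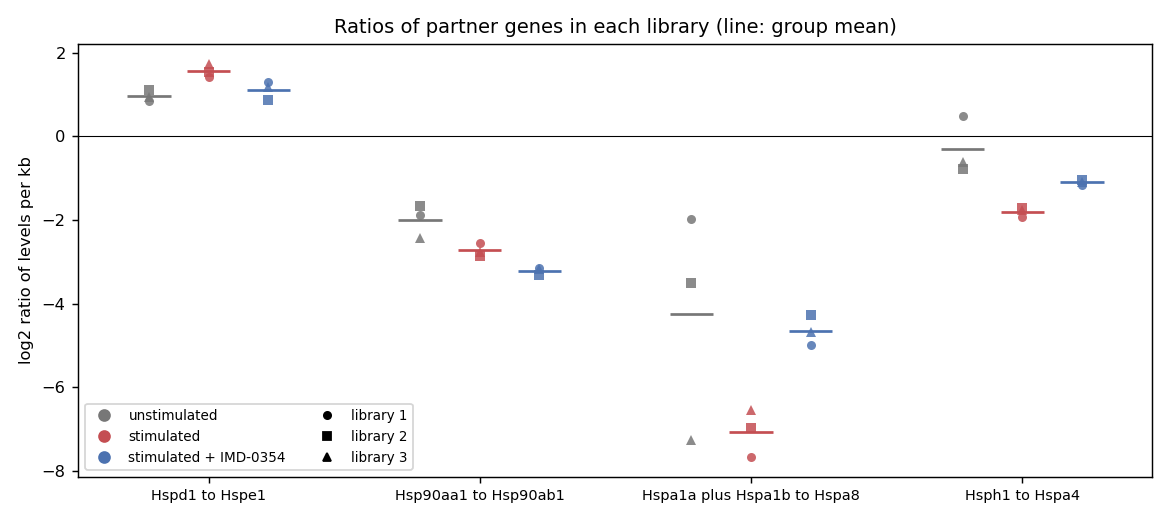
Log2 ratios per kilobase of 4 partner pairs (Hspd1 to Hspe1, Hsp90aa1 to Hsp90ab1, Hspa1a plus Hspa1b to Hspa8, Hsph1 to Hspa4) in each of the 9 libraries by group, with symbols for the library number and lines for the group mean. The ratio of Hsp90aa1 to Hsp90ab1 falls in the order unstimulated, stimulated, inhibitor (means -2.00, -2.72 and -3.21), while that of Hspa1a plus Hspa1b to Hspa8 is spread widely among unstimulated libraries (SD 2.73).

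Both cytosolic HSP90 genes rose with stimulation, and Hsp90aa1 was lower in the inhibitor group. Hsp90ab1, the constitutive form, had 1099.2, 770 and 759 CPM unstimulated, 2658.0, 3349.8 and 3063.8 stimulated and 1826.7, 2443.6 and 2580.4 with the inhibitor. The 3 groups did not overlap. It rose by 1.79 ± 0.18 (adjusted p = 1.4e-05), and the inhibitor group stayed above unstimulated cells by 1.38 (adjusted p = 1.3e-04). The difference from stimulated cells was -0.41 ± 0.18 (adjusted p = 0.0909). It was called with the replicate block over the 6 libraries (-0.40, adjusted p = 0.00885), by DESeq2 (-0.42, adjusted p = 0.0365) and without unstimulated library 1 (-0.41, adjusted p = 0.0484). Hsp90aa1, the inducible form, had 389, 319 and 183 CPM unstimulated, 599, 604 and 587 stimulated and 272, 321 and 377 with the inhibitor. The inhibitor libraries overlapped the unstimulated range. Its differences were 1.01 ± 0.23 with stimulation (adjusted p = 0.00293), -0.88 ± 0.23 against stimulated cells (adjusted p = 0.01) and 0.12 (adjusted p = 0.679) against unstimulated cells.

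The log2 ratio of Hsp90aa1 to Hsp90ab1 per kilobase was -2.00 ± 0.40 unstimulated, -2.72 ± 0.17 stimulated and -3.21 ± 0.10 with the inhibitor, with no overlap between any groups (each p = 0.10, two-sided exact permutation test, the smallest possible). Hsp90aa1 shares 58.51% of its windows of 50 bases with other annotated genes, so part of its count may depend on how shared reads were assigned. The same holds for Hspa8 (51.43%) and Hspd1 (44.78%), and for the ratios they enter.

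Among the cochaperones, Fkbp4, an immunophilin of steroid receptor complexes, had inhibitor libraries that overlapped the unstimulated range. Its levels were 112, 88.2 and 102 CPM unstimulated, 246, 273 and 270 stimulated and 91.7, 119 and 130 with the inhibitor. It rose by 1.39 ± 0.13 (adjusted p = 9.4e-06) and the inhibitor difference of -1.21 ± 0.13 (adjusted p = 7.3e-05) was the largest decrease of the 37 genes. Against unstimulated cells the difference was 0.18 (adjusted p = 0.285), or 0.32 (adjusted p = 0.0358) without inhibitor library 1. Stip1, which links HSP70 to HSP90, rose from 145, 82.5 and 102 to 280, 307 and 290 CPM and had 169, 189 and 210 CPM with the inhibitor. Its differences were 1.41 (adjusted p = 5.8e-05) and -0.63 (adjusted p = 0.0149), the latter at -0.55 (adjusted p = 0.0523) without inhibitor library 1. Ahsa1, which speeds the HSP90 ATPase, had 62.9, 47.7 and 50.7 CPM, then 83, 91.6 and 89.1, then 65, 74.6 and 86.6. For Cdc37 the levels were 112, 100 and 99.5, then 149, 178 and 159, then 115, 142 and 144 CPM. Ahsa1 and Cdc37, which brings kinases to HSP90, rose by 0.71 and 0.64 (adjusted p = 7.6e-04 and 3.7e-04). Their inhibitor differences, -0.22 and -0.28, were not called (adjusted p = 0.191 and 0.0554), although that of Cdc37 was called with the replicate block over the 6 libraries (-0.26, adjusted p = 0.0147), by DESeq2 (-0.29, adjusted p = 0.0333) and without stimulated library 1 (-0.34, adjusted p = 0.0472).

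**Figure D4:**
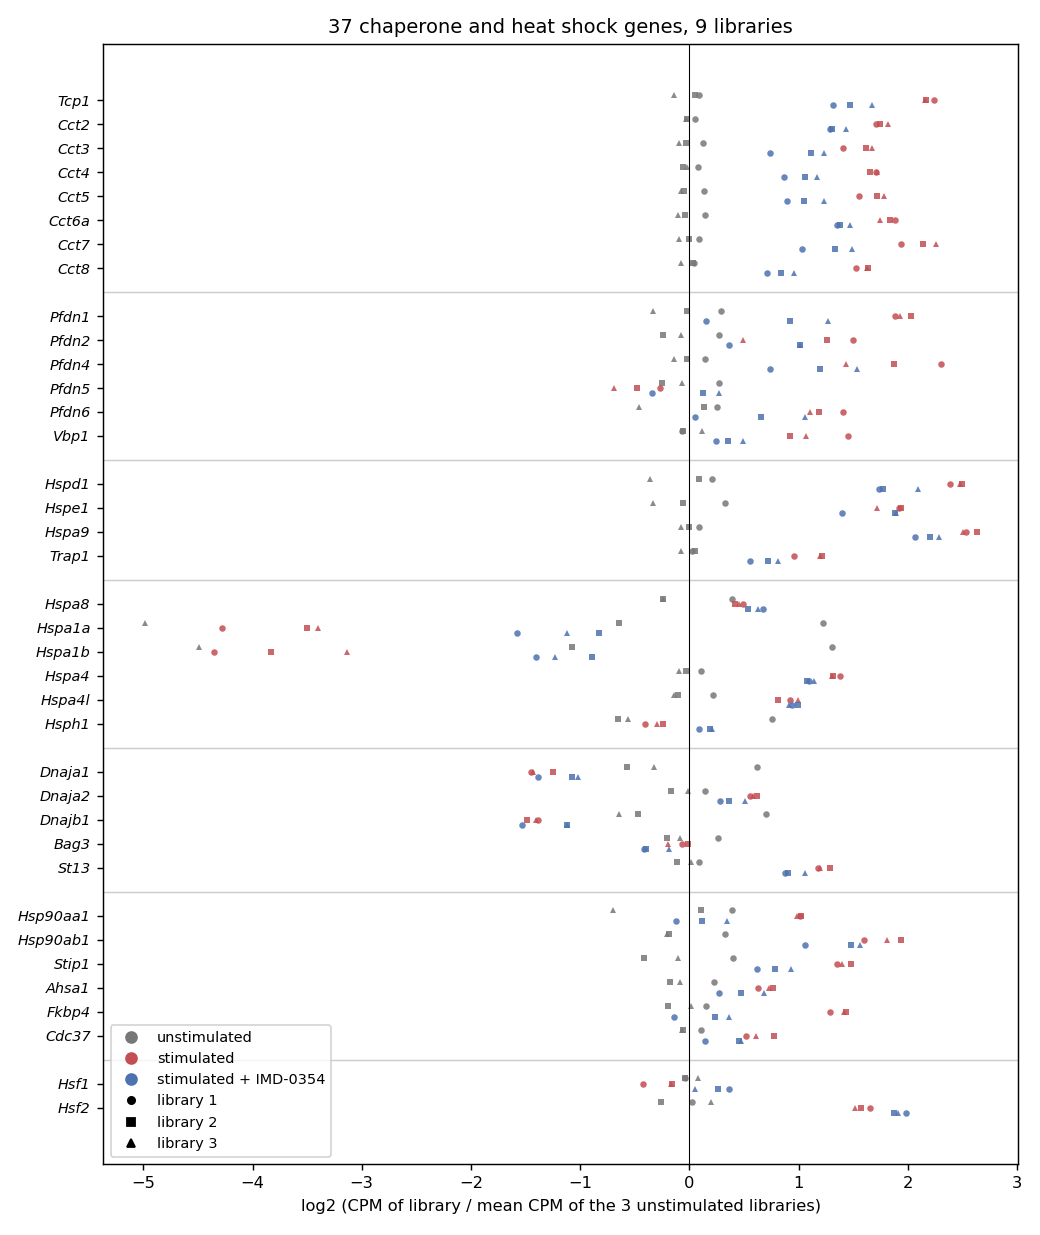
Log2 of the CPM in each of the 9 libraries over the mean CPM of the 3 unstimulated libraries, for all 37 genes ordered by class, with colours for groups and symbols for library numbers. For all 8 CCT genes the inhibitor points lie between the unstimulated and the stimulated points, while Hspa1a and Hspa1b are highest in unstimulated library 1 (74.7 and 124 CPM).

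The HSP70 and HSP110 genes split. Hspa8, Hspa4 and Hspa4l rose with stimulation, Hspa1a and Hspa1b fell, and Hsph1 was not called, so the median of the 6 was 0.07. Hspa4, an HSP110-type exchange factor, had 174, 158 and 152 CPM unstimulated, 420, 404 and 400 stimulated and 346, 342 and 357 with the inhibitor. It rose by 1.34 ± 0.07 (adjusted p = 2.3e-07). Its inhibitor difference was small, -0.23 ± 0.07 (adjusted p = 0.0264), and was lost with upper-quartile factors (-0.10, adjusted p = 0.379) and without any of stimulated libraries 1 to 3 or inhibitor libraries 1 and 2 (-0.25 to -0.21). Hspa4l, its paralog, rose by 0.91 (adjusted p = 7.8e-05) from 17.2, 13.8 and 13.4 CPM, and stood at 28.1, 25.9 and 29.4 CPM in stimulated and 28.3, 29.4 and 27.9 CPM in inhibitor libraries (0.04, adjusted p = 0.819).

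Hspa8, the constitutive HSP70 of the cytosol, was the most abundant HSP70 gene per kilobase of exon in each group. It had 1170.7, 753 and 755 CPM unstimulated, 1254.4, 1188.7 and 1220.6 stimulated and 1425.3, 1293.2 and 1380.5 with the inhibitor. Unstimulated library 1 lay close to the stimulated level and the other unstimulated libraries far below it. Hspa8 rose by 0.45 ± 0.16 (adjusted p = 0.0271), a call lost with upper-quartile factors (0.23, adjusted p = 0.265), with the fit limited to 10 CPM or more (0.26, adjusted p = 0.173) and when any of unstimulated libraries 2 and 3 or stimulated libraries 1 to 3 was left out (0.34 to 0.47). Without unstimulated library 1 it was called at 0.70 (adjusted p = 1.3e-04). Against unstimulated cells the inhibitor group was higher by 0.61 (adjusted p = 0.00785). The inhibitor libraries also lay above all stimulated libraries, without a call (0.16 ± 0.16, adjusted p = 0.432). With the block over the 6 libraries that difference was not called either (0.18, adjusted p = 0.0629).

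Hspa1a (chr17:34969190-34972156, minus strand) and Hspa1b (chr17:34956436-34959238, minus strand) are the stress-inducible HSP70 genes. Hspa1a had 74.7, 20.4 and 1.01 CPM in unstimulated libraries 1 to 3, 1.65, 2.83 and 3.03 in stimulated libraries and 10.7, 18 and 14.7 in inhibitor libraries. For Hspa1b the levels were 124, 23.8 and 2.23, then 2.45, 3.52 and 5.71, then 18.9, 27 and 21.4. The unstimulated libraries spanned 73.7-fold and 55.7-fold, with library 3 below every stimulated library. The inhibitor libraries lay above all stimulated libraries and spanned 10.7 to 18 CPM for Hspa1a and 18.9 to 27 for Hspa1b.

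The fitted differences with stimulation were -3.67 ± 1.05 for Hspa1a and -3.68 ± 1.05 for Hspa1b (adjusted p = 0.0109 and 0.0106), although the groups overlapped. Without unstimulated library 1 they were -2.09 and -1.73 and not called (adjusted p = 0.0629 and 0.0696), nor were they by limma voom (-2.09 and -2.21, adjusted p = 0.27 and 0.206). The inhibitor group was higher than stimulated cells by log2 differences of 2.53 ± 1.01 and 2.52 ± 1.01 without a call (adjusted p = 0.0672 and 0.0661), in a fit whose spread includes the unstimulated libraries. Without unstimulated library 1 both were called (2.53 and 2.52, adjusted p = 0.0345 and 0.0182), as they were without library 3 (adjusted p = 0.00182 and 0.00473). With no filter on low counts both were called too (2.50 and 2.49, adjusted p = 3.9e-09 and 1.3e-09). With upper-quartile factors neither was called (2.65 for each, adjusted p = 0.0527 and 0.052). In the 6 libraries compared, with the replicate block, the differences were 2.55 (adjusted p = 6.8e-05) and 2.59 (adjusted p = 2.9e-04). The share of windows of 50 bases found in other annotated genes was 60.35% for Hspa1a and 62.31% for Hspa1b, mostly in each other and Hspa1l. Counted as 1 gene, the pair gave -3.68 with stimulation (adjusted p = 0.0104) and 2.53 in the inhibitor group (adjusted p = 0.0643). Against unstimulated cells the inhibitor group was at -1.14 and -1.16 without a call (adjusted p = 0.338 and 0.332), at 0.44 and 0.79 without unstimulated library 1, and called lower at -1.71 and -1.72 without library 3 (adjusted p = 0.0128 and 0.0288).

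Hsph1, the inducible HSP110, had 324, 122 and 130 CPM unstimulated, 145, 162 and 156 stimulated and 204, 219 and 221 with the inhibitor. Unstimulated library 1 was the highest of all 9 libraries and the other unstimulated libraries the lowest. The difference with stimulation was -0.32 (adjusted p = 0.381) with all libraries and 0.29 (adjusted p = 0.018) without unstimulated library 1, so that 1 library set its direction. The inhibitor libraries lay above the stimulated ones without overlap, by 0.48 ± 0.31 (adjusted p = 0.233), and by 0.49 (adjusted p = 6.4e-04) with the block over the 6 libraries. The log2 ratio of Hsph1 to Hspa4 per kilobase was -0.30 ± 0.69 unstimulated, -1.80 ± 0.11 stimulated and -1.09 ± 0.06 with the inhibitor (each difference p = 0.10, two-sided exact permutation test, the smallest possible).

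Partner proteins of HSP70 also split. The J-domain proteins Dnaja1 and Dnajb1, which deliver substrates and start the ATP cycle, fell with stimulation, whereas Dnaja2 and St13 rose. Dnaja1 had 371, 163 and 193 CPM unstimulated, 88.6, 102 and 89.4 stimulated and 92.8, 115 and 119 with the inhibitor. It fell by 1.38 ± 0.26 on the log2 scale (adjusted p = 9.6e-04). For Dnajb1 the levels were 215, 95.2 and 84.6, then 50.5, 47 and 50, then 45.5, 60.6 and 60.8 CPM. It fell by 1.42 ± 0.30 (adjusted p = 0.0021). All unstimulated libraries of both genes lay above all cultured libraries, and both stayed called without unstimulated library 1, with log2 differences of -0.93 for Dnaja1 and -0.87 for Dnajb1.

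Against stimulated cells the inhibitor group showed 0.22 for Dnaja1 (adjusted p = 0.511) and 0.18 for Dnajb1 (adjusted p = 0.66). With the block over the 6 libraries Dnaja1 was called at 0.23 (adjusted p = 0.0469). Both remained below unstimulated cells, by log2 differences of -1.15 (adjusted p = 0.00384) and -1.24 (adjusted p = 0.00603).

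Dnaja2 had 115, 92.5 and 103 CPM unstimulated, 153, 160 and 156 stimulated and 126, 134 and 148 with the inhibitor. It rose by 0.59 (adjusted p = 3.1e-04), with an inhibitor difference of -0.20 (adjusted p = 0.107) that was called with the block over the 6 libraries (-0.19, adjusted p = 0.0444). St13, which stabilises the ADP-bound state of HSP70, rose from 104, 90.2 and 98.4 to 221, 238 and 224 CPM, by 1.22 ± 0.08 (adjusted p = 9.0e-07), and had 179, 183 and 204 CPM with the inhibitor. Its inhibitor difference of -0.27 (adjusted p = 0.0221) was lost with upper-quartile factors (-0.14, adjusted p = 0.224) and without stimulated libraries 2 or 3 or inhibitor libraries 1 or 2 (-0.29 to -0.23). Bag3, an exchange factor that couples HSP70 to autophagy, stood at 15.6 to 21.6 CPM unstimulated, 15.7 to 17.8 stimulated and 13.5 to 15.8 with the inhibitor and was called in no comparison (adjusted p = 0.589, 0.207 and 0.0791). Against unstimulated cells it was called lower with RLE, upper-quartile and DESeq2 scaling (-0.42 to -0.38) and without unstimulated library 2 (-0.43, adjusted p = 0.0335).

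**Figure D5:**
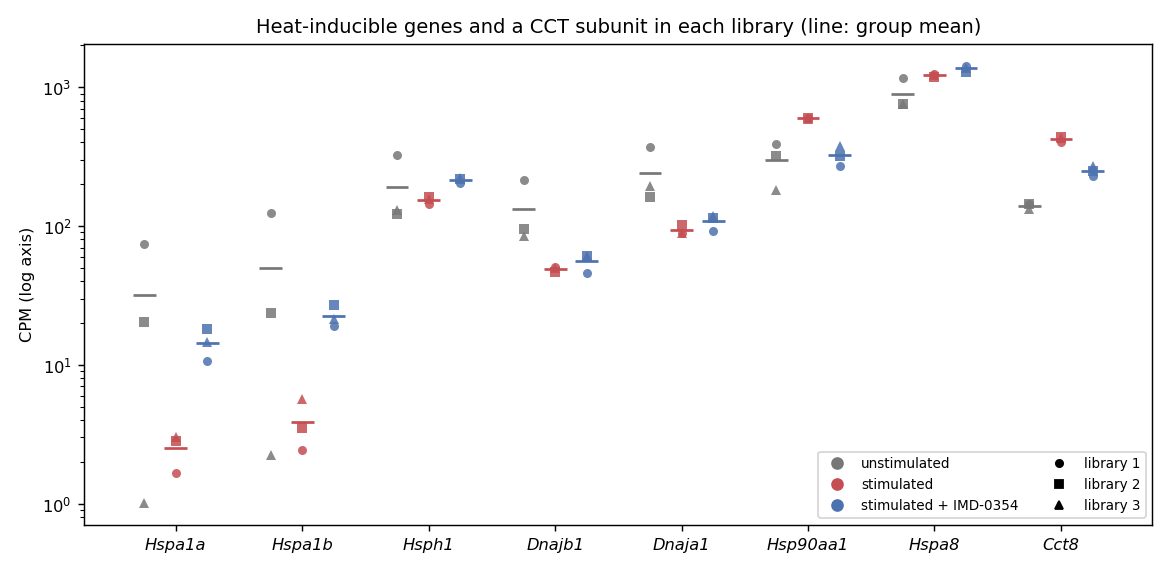
CPM in each of the 9 libraries, on a log axis, for 6 chaperone genes chosen for their spread among unstimulated libraries, Hspa8 and the CCT subunit gene Cct8. Lines show group means. Unstimulated library 1 is highest of its group for each gene, with 74.7 CPM of Hspa1a against 20.4 and 1.01 in libraries 2 and 3. The inhibitor libraries lie above the stimulated ones for Hspa1a, Hspa1b, Hsph1 and Hspa8.

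The spread within the unstimulated group was widest for Hspa1a and Hspa1b. Not all genes with heat shock element letters varied in this way, as Bag3 had 21.6, 15.6 and 16.9 CPM and Hspd1 had 150, 138 and 101. Of the 35 genes with at least 10 CPM in unstimulated cells, 9 had more than 1.5 times the level in library 1 that they had in library 3, against 5.65% of all such genes. These were Hspa1a (73.7-fold), Hspa1b (55.7), Dnajb1 (2.55), Hsph1 (2.49), Hsp90aa1 (2.12), Dnaja1 (1.92), Pfdn6 (1.64), Hspe1 (1.58) and Hspa8 (1.55). Library 1 exceeded both other libraries by more than 1.5 times for 6 of the 35 (Hspa1a, Hspa1b, Hsph1, Dnaja1, Dnajb1 and Hspa8), against 0.969% of all such genes. Of the 8 CCT genes, 0 were among either set. The pattern was found in these libraries and is given as a description. By the ratio of library 1 to library 3, Hspa1a and Hspa1b ranked 2 and 3 among 8774 genes.

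Other genes also differed between the unstimulated libraries. Immediate early genes, which respond within minutes to handling and signalling, summed to 5972.7, 4572.3 and 3274.8 CPM over 15 genes in libraries 1 to 3, against 1362.3 to 1447.9 in stimulated and 1114.8 to 1262.6 in inhibitor libraries. Fos stood at 1011.9, 768 and 420 CPM and Jun at 705, 473 and 349. In the ranking by the ratio of library 1 to library 3, n-R5-8s1, annotated as ribosomal RNA, was at rank 5 with 82.4, 5.75 and 2.88 CPM. The small ribosomal RNA of mitochondria, mt-Rnr1, was at rank 9 with 8561.1, 1075.5 and 729 CPM. Both were picked by that ratio, and ribosomal RNA was not summed per library. Erythroid and platelet markers summed to 470, 582 and 39.2 CPM, and B cell markers to 844, 1419.0 and 538. Of these 3 libraries, Hspa1a, Hspa1b, Dnajb1 and Hsp90aa1 were lowest in library 3, while Hsph1 and Dnaja1 were lowest in library 2. The part of handling, ribosomal RNA content or other cells in this spread was not tested.

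Both heat shock factors were higher in the inhibitor group than in stimulated cells. Hsf1, the main activator of inducible chaperones, had 52, 51.9 and 56.4 CPM unstimulated, 39.8, 47.8 and 47.6 stimulated and 68.9, 64.2 and 55.3 with the inhibitor. The inhibitor difference was 0.48 ± 0.11 (adjusted p = 0.00549), while that with stimulation was -0.25 (adjusted p = 0.0699). The latter was called lower with RLE factors (-0.29, adjusted p = 0.045), upper-quartile factors (-0.47, adjusted p = 0.00753), DESeq2 (-0.29, adjusted p = 0.0372) and the fit limited to 10 CPM or more (-0.44, adjusted p = 0.00598). Hsf2 rose from 13.7, 11.3 and 15.5 to 42.5, 40 and 38.5 CPM, by 1.58 ± 0.12 (adjusted p = 2.1e-06), and had 53.4, 49.4 and 50.7 CPM with the inhibitor. It was the only one of the 37 genes called higher in both comparisons. Its inhibitor difference of 0.34 ± 0.12 (adjusted p = 0.0391) was not called without any single one of unstimulated library 1, stimulated libraries 1 to 3 or inhibitor libraries 1 to 3 (0.31 to 0.38). That call was also lost with no filter on low counts (0.31, adjusted p = 0.133) and with the replicate block over all 9 libraries (0.34, adjusted p = 0.0522). With the block over the 6 libraries it was kept (0.36, adjusted p = 0.00585).

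Other genes of the same pathways moved in part with the chaperones. For the counts of these lists, 32% of all genes tested were higher and 34% lower with stimulation. In the inhibitor group 21.7% were higher and 22.8% lower than in stimulated cells. Among 18 mitochondrial chaperone partners and proteases, 16 rose with stimulation and none fell (median 1.06), and in the inhibitor group 10 were lower and 4 higher than in stimulated cells. Lonp1, the matrix protease that degrades misfolded proteins, rose from 43.6 ± 4.75 to 472 ± 44.1 CPM (SD, n = 3), a log2 difference of 3.44 ± 0.16 (adjusted p = 9.2e-08), and had 280 ± 55.4 CPM with the inhibitor. Afg3l2, a protease of the inner membrane, stood at 153 ± 12 CPM in stimulated and 57.7 ± 7.57 in inhibitor cells (-1.41 ± 0.11, adjusted p = 7.7e-06). Grpel1, the exchange factor of Hspa9, was higher with the inhibitor, at 89.8 ± 23.1 against 44.1 ± 2.8 CPM (1.03 ± 0.17, adjusted p = 7.9e-04), whereas Hspa9 itself was lower.

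Of 19 CCT clients and tubulin cofactors, 15 rose and 1 fell with stimulation (median 0.63), and 10 were lower and 2 higher in the inhibitor group. Tubb6, a beta-tubulin, rose from 4.99 ± 0.903 to 45.8 ± 10.1 CPM (3.20 ± 0.29, adjusted p = 6.6e-06). Actg1, cytoplasmic gamma-actin, had 1033.0 ± 133 CPM in stimulated and 350 ± 50 in inhibitor cells (-1.56 ± 0.13, adjusted p = 1.1e-05), and Tubb4b had 199 ± 25.5 and 62.9 ± 8.8 (-1.67 ± 0.20, adjusted p = 1.2e-04). Among 17 other HSP90 cochaperones, 11 rose and 1 fell with stimulation, with 8 lower and 2 higher in the inhibitor group. Ruvbl2, part of an HSP90-linked assembly complex, rose from 32.9 ± 2.66 to 179 ± 17.3 CPM (2.45 ± 0.13, adjusted p = 1.9e-07). Fkbp5, the paralog of Fkbp4, had 125 ± 8.11 CPM in stimulated and 56.9 ± 9.71 in inhibitor cells (-1.13 ± 0.14, adjusted p = 1.4e-04).

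The 16 other cytosolic J-domain proteins had no common direction, with 5 higher and 5 lower after stimulation (median -0.02). These counts were near the shares among all genes, and in the inhibitor group 6 were higher and 3 lower. Dnajc2, a J-domain protein at the ribosome, rose by 1.54 ± 0.09 (adjusted p = 3.4e-07), and Dnajb4 fell from 42.9 ± 10.1 to 19.6 ± 0.936 CPM (-1.13 ± 0.16, adjusted p = 1.3e-04). A list of 14 genes held mostly other HSP70 exchange factors and family members, but also Stub1, Naca and Btf3. Of these 14, 9 rose and 1 fell, with 7 lower and 2 higher in the inhibitor group. Hspa14, which acts with Dnajc2 at the ribosome, had 35.3 ± 2.33, 108 ± 7.02 and 51.4 ± 6.44 CPM in the 3 groups, and was called in the first 2 comparisons (1.62 ± 0.11 and -1.08 ± 0.11, adjusted p = 7.8e-07 and 3.8e-05).

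Of 14 further genes linked to HSF1 and proteotoxic stress, 5 rose and 3 fell with stimulation (median 0.29), and 4 were lower and 2 higher in the inhibitor group. Whether these counts differ from the shares among all genes was not tested. Ier5, an immediate early gene known to activate HSF1, fell from 174 ± 31.4 to 45.7 ± 5.39 CPM (-1.93 ± 0.18, adjusted p = 6.8e-06) and had 74.5 ± 16 with the inhibitor (0.71 ± 0.17 against stimulated cells, adjusted p = 0.00795). Sqstm1, an autophagy receptor for ubiquitinated proteins, was higher with the inhibitor, at 229 ± 22.4 against 105 ± 2.99 CPM (1.12 ± 0.09, adjusted p = 1.1e-05). Of 6 further heat shock genes (Hspb1, Hspb6, Hspb8, Hspb11, Cryab and Serpinh1) 5 passed the filter, with 2 higher and 2 lower after stimulation. Hspb11 rose from 5.85 ± 1.63 to 11.8 ± 2.02 CPM (1.01 ± 0.23, adjusted p = 0.00266).

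Other protein quality control genes were set beside these. All 31 proteasome genes rose with stimulation (median 1.5) and 27 were lower in the inhibitor group (median -0.58), none higher. Of 16 chaperones of the endoplasmic reticulum, 14 rose and 2 fell with stimulation (median 0.85), and 8 were lower and 5 higher in the inhibitor group (median -0.25). The CCT medians were 1.73 and -0.64, and the difference between the lists was not tested.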

How the data were processed

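The authors deposited whole-number read counts per gene for 9 libraries, which per the submitters' processing notes came from STAR 2.7.1a and featureCounts on mm10. Libraries were made with a stranded total RNA kit with ribosomal RNA depletion, per the labels' protocols. Annotation release and strand setting: not given in the sources used here. Reads of neighbours on opposite strands (for Tcp1, Cct6a, Cct7, Cct8, Pfdn2, Pfdn4, Pfdn6, Hspd1, Hspe1, Trap1, Hspa1a and Dnaja1) may therefore be mixed. The mm10 build is a C57BL/6 assembly, to which castaneus reads may align less often. Even counts made up 70.58% to 78.51% of the counts from 1 to 10, so fragments may largely have been counted as 2 reads.

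Names, positions and exon lengths came from GENCODE M21 (49412 of 49671 identifiers matched), and identifiers without a match carried at most 0.036% of a library. Genes passed filterByExpr, TMM factors (0.9253 to 1.122) scaled libraries, and 1 quasi-likelihood fit over all 9 libraries with the group as its term gave two-sided tests (edgeR 4.0.16, R 4.3.3, 6 residual degrees of freedom). The ± of a log2 difference is its size over the square root of F, not a fitted standard error. The script was tested on simulated data. Alternatives used DESeq2 1.42.0, limma 3.58.1 (voom), other factors and filters, a replicate block, and leaving out each library.

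The members and lists were chosen with earlier results of these data known. From each further list the genes named were taken from the 2 largest increases and decreases per comparison, among called genes with mean log2 CPM of at least 3 and no overlap of libraries. Replicate numbers are not stated to pair libraries. Over 9020 genes, deviations from group means of same-numbered stimulated and inhibitor libraries correlated at 0.191, 0.206 and 0.112. These were treated as pairs in the block over the 6 libraries, whereas same-numbered pairs with unstimulated libraries gave -0.484 to 0.0208. Differently numbered pairs gave -0.186 to 0.0485 between stimulated and inhibitor libraries, and up to 0.338 where 1 library was unstimulated. The values therefore do not establish a pairing, and calls made with the block rest on that assumption.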

Additional observations from a re-analysis of the deposited data

How the results depend on the processing

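Across the alternatives, no CCT gene changed direction or lost a call in any comparison, while several genes with small differences or a wide unstimulated spread did. With the fit limited to 10 CPM or more, fewer genes were tested, and 3455 rose and 3487 fell with stimulation, with 2934 higher and 2918 lower for the inhibitor group against unstimulated cells. The number of the 37 genes that fell with stimulation was 3 by limma voom, and 2 to 5 when single libraries were left out. The number higher in the inhibitor group than in stimulated cells was 5 with no filter on low counts, 6 with only the 6 libraries compared, and 1 to 5 when single libraries were left out. The number lower in the inhibitor group than in unstimulated cells was 4 with no filter, and 2 to 4 when single libraries were left out. For the last comparison the difference between groups (inhibitor minus unstimulated) in the log2 ratio of Hspa1a plus Hspa1b to Hspa8 ran from -1.90 to 0.75 when single libraries were left out, positive only without unstimulated library 1.

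Values that changed sign, all of them uncalled in the full fit, were as follows. With stimulation, Hsph1 was at 0.29 and Bag3 at 0.06 without unstimulated library 1. Against stimulated cells, Hspe1 was at 0.01 with upper-quartile factors and 0.03 without inhibitor library 1, and Hspa4l at -0.03 without stimulated library 2. Against unstimulated cells, Pfdn5 was at -0.01 with RLE factors and with DESeq2, -0.06 with upper-quartile factors, -0.11 in the fit limited to 10 CPM or more, -0.07 without unstimulated library 2 and -0.09 without inhibitor library 3. In that comparison Hspa1a and Hspa1b were at 0.46 and 0.38 by limma voom and at 0.44 and 0.79 without unstimulated library 1, and Hsph1 at -0.08 and -0.05 without unstimulated libraries 2 and 3. Hsp90aa1 was at -0.03 in the fit limited to 10 CPM or more, -0.13 without unstimulated library 3 and -0.00 without inhibitor library 3. Over single libraries left out, these values ran from -0.56 to 0.29 (Hsph1) and -0.19 to 0.06 (Bag3) with stimulation, and from -0.20 to 0.03 (Hspe1) and -0.03 to 0.08 (Hspa4l) against stimulated cells. Against unstimulated cells they ran from -0.09 to 0.21 (Pfdn5), -1.71 to 0.44 (Hspa1a), -1.72 to 0.79 (Hspa1b), -0.08 to 0.77 (Hsph1) and -0.13 to 0.36 (Hsp90aa1). Apart from settings with fewer genes or libraries, the cause was not tested.

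With the replicate number as a block over all 9 libraries, 2 of the 37 genes fell with stimulation (Pfdn5, Hspa1a and Hspa1b were no longer called) and 1 was higher in the inhibitor group than in stimulated cells. The block over only the 6 libraries compared, an alternative added after seeing the data like the joint count of Hspa1a and Hspa1b, gave 6 higher. With longest transcripts in place of all exons the coefficients of variation among CCT subunits were 43%, 38.6% and 44.3%. Read depth limited none of the 37 calls through absence, since all 37 genes passed the filter, and 3 counts in a library correspond to 0.0569 to 0.0813 CPM.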
